A study of Homo sapiens with 12 samples.

Results

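The genes described here are 34 that encode collagens or the proteins that modify, fold and cross-link them: 20 genes for collagen chains and 14 for processing enzymes and chaperones. They were taken by gene symbol from 2 deposited tables of transcript levels, which together list 13555 genes. The first table listed 31 of the 34 (17 chains and all 14 enzymes) and the second listed 25 (13 chains and 12 enzymes). COL1A2, COL3A1 and COL4A4 were not analysed here in either table. COL5A2, COL6A3, COL13A1, COL27A1, LOXL4 and P4HA3 were not analysed here in the second.

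Collagens are triple-helical proteins of the extracellular matrix. Their chains are hydroxylated on proline and lysine and partly glycosylated in the endoplasmic reticulum, fold into trimers with the help of chaperones, and are secreted. Outside the cell, propeptides are cut off and lysines are oxidised so that neighbouring molecules become cross-linked. In breast, epithelial cells rest on a basement membrane built on type IV collagen, anchored to the stroma by type VII collagen, while the fibrillar collagens are mainly known from stromal fibroblasts.

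The cells were MCF-12A, an established line of non-tumour human breast epithelium, and RNA-seq asked which transcripts respond to TGFbeta1, a secreted cytokine well known for raising matrix gene expression. Each table sets 3 control libraries (vehicle) against 3 libraries of cells given TGFbeta1: replicates 1 to 3 form the first set and replicates 4 to 6 the second. All cells were of this 1 line, the labels give neither dose nor duration of treatment, and they name no genotype or other agent. The labels do not say that replicates were separate cultures, so p-values reflect only how far these libraries spread, and that spread may be technical. Levels are FPKM, fragment numbers scaled by transcript length and by library size, summed over the transcripts of a gene. The sets were normalised separately, so each change was taken within a set.

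The FPKM of a library summed to 291801.6 to 318269.5 in the first set, and to 338968.0 to 358432.6 in the other. No counts were used, so depth is unknown. The 14 epithelial markers summed to 3845 to 4676 FPKM in the first set, and the 12 listed in the second to 2648 to 3029 FPKM. Single markers did not all follow these sums. Control means in the first and second set were 42.7 and 12.1 FPKM for CDH1 and 417.7 and 103.7 for KRT17. They were 69.3 and 69.8 for EPCAM and 720.5 and 872.7 for KRT14. Such differences between sets were not tested. Limma tested 12 of the epithelial markers in each set. With TGFbeta1 3 rose in the first set, LAMB3 (90.4 to 376.7 FPKM), ITGA6 (67.7 to 143.1) and KRT6A (1208 to 1407). The 4 that fell were KRT5 (1365 to 873), KRT18 (261.3 to 155.6), EPCAM (69.3 to 33.5) and ESRP1 (58.8 to 40.6). Over all genes tested in that set, 9.00% were called higher and 11.9% lower. In the second set none was called, and 10 of 12 log2 changes were positive. At an unadjusted p under 0.05, 4 were higher and 0 lower there, against 5.79% and 5.39% of all genes. Of 15 fibroblast and mural markers, the first set listed 4 (FBLN1, MFAP5, RGS5 and CSPG4) and the second listed 2 (FBLN1 and PDGFRA). PDGFRB, THY1, LUM and DES were not among them. FBLN1 averaged 64.7 FPKM in the controls of the first set and 77.7 in those of the second. SMAD7 and SKIL, which encode feedback inhibitors that TGFbeta signalling induces, served as a check of the labels. With TGFbeta1 in the first set, SMAD7 rose from a mean of 1.22 to 4.35 FPKM and SKIL from 5.74 to 23.7 (limma adjusted p = 0.00199 and 7.77e-05). In the second set SMAD7 was 1.12 in controls and 0.909 in the other group, and SKIL was 4.22 and 3.95 (adjusted p = 0.653 and 0.798). The treated group of the second set is therefore called the libraries labelled TGFbeta1.

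In the first set collagen chain genes were higher with TGFbeta1 almost throughout. The summed level of the 17 listed chains was 54.3 to 55.3 FPKM in the controls and 232.7 to 238.7 FPKM with TGFbeta1. That of the 14 enzymes and chaperones was 272.7 to 291.6 and 390.7 to 404.1 FPKM. Chain FPKM per enzyme FPKM was 0.190 to 0.202 in control libraries and 0.585 to 0.596 in TGFbeta1 libraries. Of 24 genes that reached a mean of 1 FPKM and were tested (11 chains and 13 enzymes), 17 rose and 1 fell, at a Benjamini-Hochberg adjusted p under 0.05 over all genes. Over all 10454 genes tested, 9.00% were called higher and 11.9% lower. When libraries were scaled to an equal sum these shares were 11.1% and 8.18%, and the genes described here gave 19 higher and 1 lower. That scaling tested 12 chains instead of 11, so its counts have another base. COL18A1, the chain closest under the filter (mean 0.992 FPKM), averaged 0.382 in controls and 1.60 with TGFbeta1. The chains held 10 of the rises (of 11 tested) and the enzymes 7 (of 13), with the 1 fall among the enzymes. The median log2 change was 1.25 for the chains, 0.53 for the enzymes and -0.055 for all genes. These counts and medians are a description, since P4HA3 passed the filter through its TGFbeta1 libraries alone, and without it 6 of 12 enzymes rose. Without the filter, 22 of the 31 listed genes were called higher and 1 lower, against 8.54% and 10.6% of all genes.

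**Figure D1:**
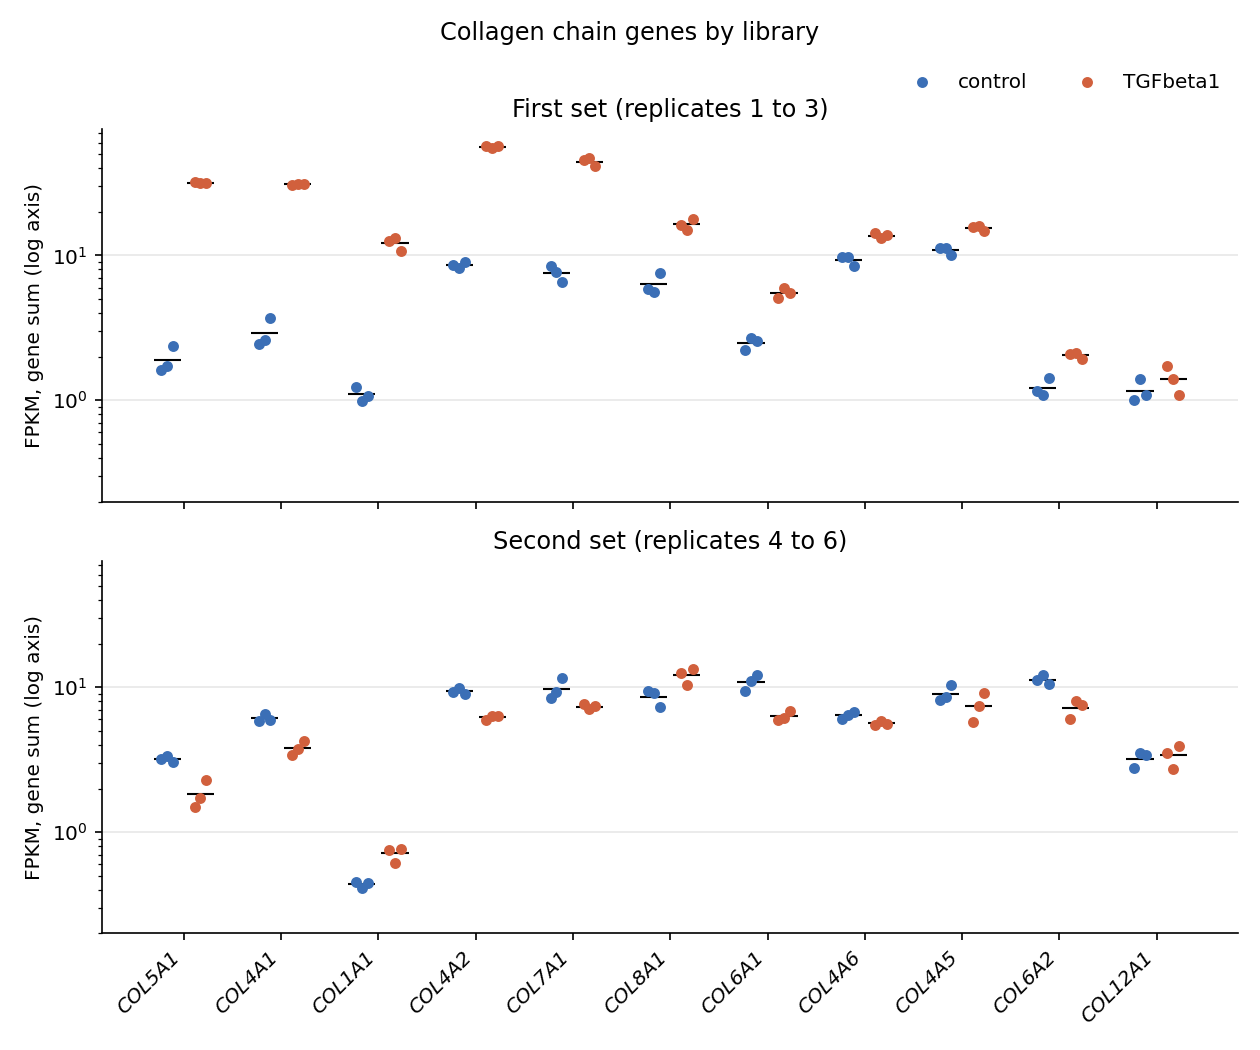
FPKM of 11 collagen chain genes (gene sums, log axis) in each library, with controls in blue and TGFbeta1 libraries in orange. Each point is 1 library and each bar a group mean of 3. The groups of 10 genes do not overlap in the first set while those of COL12A1 do, and in the second the libraries labelled TGFbeta1 lie under all controls for 7 genes.

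Among the fibrillar chains, COL5A1 had the largest fitted change of all the genes tested here. It encodes the main chain of type V collagen, which starts fibrils and limits their width (hg19 chr9:137533620-137736689, plus strand). Its level was 1.62, 1.73 and 2.36 FPKM in the controls and 32.2, 31.5 and 31.6 FPKM with TGFbeta1. The groups lay far apart, with a ratio of means of 16.7 and a log2 change of 3.50 ± 0.11 (SE; limma adjusted p = 6.74e-05). COL5A2, its usual partner in the trimer, stayed low at 0.226, 0.198 and 0.222 FPKM in the controls and 0.219, 0.154 and 0.329 with TGFbeta1. Those groups overlapped, and the log2 change in the fit without a filter was 0.02 (adjusted p = 0.857). The ratio of COL5A1 to COL5A2 was 7.19, 8.77 and 10.6 in control libraries and 147, 205 and 96.0 in TGFbeta1 libraries. The exact two-sided permutation test gave p = 0.1, the smallest that 3 libraries against 3 can reach.

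COL1A1 encodes the major chain of type I collagen, the main fibrillar collagen of stroma (hg19 chr17:48260650-48278993, minus strand). It was 1.24, 0.994 and 1.07 FPKM in the controls and 12.5, 13.2 and 10.8 FPKM with TGFbeta1, without overlap. The log2 change was 2.65 ± 0.11 (SE; limma adjusted p = 0.000112). Much of that sum came from a short transcript. ENST00000507689, which has 4 exons and 549 bases in GENCODE 29, was 0.161, 0.0578 and 0.0382 FPKM in the controls and 6.54, 7.10 and 5.48 FPKM with TGFbeta1. Its share of the gene's FPKM was 3.57 to 13.0% in controls and 50.7 to 53.7% with TGFbeta1. FPKM divides by length, so a short transcript of this kind weighs heavily in a sum. The full-length transcript ENST00000225964 (51 exons, 6727 bases) also rose, from 1.08, 0.936 and 1.03 to 5.98, 6.11 and 5.32 FPKM (log2 change 1.75, limma adjusted p over transcripts = 0.00282). With only that transcript, which is the 1 that both sets list, the gene's log2 change is 1.75 and not 2.65. COL27A1, a further fibrillar chain, was 0.204, 0.163 and 0.191 FPKM in controls and 2.08, 0.950 and 2.09 with TGFbeta1. Its mean over the set was under 1 FPKM, and the fit without a filter gave 1.16 (adjusted p = 0.0121).

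The basement membrane chains of type IV collagen rose to unequal extents. COL4A1 and COL4A2 encode the chains of its most widespread trimer, and lie head to head on chromosome 13 with 117 bases between the deposited hg19 gene spans. COL4A1 was 2.47, 2.59 and 3.69 FPKM in the controls and 30.8, 31.0 and 31.1 with TGFbeta1. The log2 change was 3.04 ± 0.13 (SE; limma adjusted p = 0.000137). COL4A2 was 8.57, 8.20 and 9.001 FPKM in the controls and 56.5, 55.5 and 56.8 with TGFbeta1, a log2 change of 2.58 ± 0.06 (SE; adjusted p = 4.78e-05). Both groups of TGFbeta1 libraries were tightly placed and well above every control. The level of COL4A2 relative to COL4A1 was 3.47, 3.16 and 2.44 in controls and 1.84, 1.79 and 1.83 with TGFbeta1. COL4A2 was the higher of the pair in every library, and the ratio was lower in all 3 TGFbeta1 libraries (exact permutation p = 0.1, the smallest possible). The trimer of COL4A1 and COL4A2 holds more copies of the COL4A1 chain. The COL4A5 and COL4A6 genes, another head-to-head pair on the X chromosome with 409 bases between them, rose less. COL4A5 was 11.3, 11.2 and 10.05 FPKM in the controls and 15.7, 15.9 and 14.8 with TGFbeta1 (log2 change 0.47, adjusted p = 0.0108). COL4A6 was 9.75, 9.70 and 8.45 FPKM against 14.2, 13.1 and 13.8 (log2 change 0.52, adjusted p = 0.011). The ratio of these chains stayed between 1.07 and 1.21 in the 6 libraries. The COL4A5 call was lost on the transcripts listed in both sets (adjusted p = 0.0515).

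Among the chains described here, COL4A5 was therefore the most abundant in the controls of the first set (mean 10.8 ± 0.686 FPKM, SD, n = 3). COL4A6 followed at 9.30 ± 0.735 and COL4A2 at 8.59 ± 0.403. COL4A6 and COL4A2 lay within their spread of each other. With TGFbeta1 the order was COL4A2 at 56.3 ± 0.705, COL7A1 at 44.5 ± 2.77, COL5A1 at 31.7 ± 0.404 and COL4A1 at 30.9 ± 0.157. COL4A5 then ranked 6. COL17A1, a chain outside this ranking, was higher than all of them, at a mean of 147.8 FPKM in controls and 295.9 with TGFbeta1.

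The stretch between the start sites of COL4A1 and COL4A2 is printed because it lies between 2 genes that both rose, together with the 250 bases before the starts of COL5A1 and COL7A1, which are among the chains that rose most, of P4HA2, an enzyme that rose, and of CRTAP, which fell. They are from RefSeq (GRCh38.p14), each on the strand of its gene and the shared stretch on the plus strand. Capitals mark matches on either strand to CAGAC (a SMAD element), GGGCGG (a GC box), CCAAT and TATAAA. None of the motifs contains another.
COL4A1 and COL4A2, chr13:110307158-110307283: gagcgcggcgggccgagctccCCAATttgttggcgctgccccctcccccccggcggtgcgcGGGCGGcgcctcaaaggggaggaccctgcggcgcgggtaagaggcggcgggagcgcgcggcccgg
COL5A1, chr9:134641553-134641802, plus strand: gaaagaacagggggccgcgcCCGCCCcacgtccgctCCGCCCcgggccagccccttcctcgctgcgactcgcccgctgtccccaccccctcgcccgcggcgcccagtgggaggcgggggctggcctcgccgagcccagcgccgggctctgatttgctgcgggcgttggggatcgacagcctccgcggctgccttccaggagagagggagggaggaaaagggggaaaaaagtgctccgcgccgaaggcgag
COL7A1, chr3:48595330-48595579, minus strand: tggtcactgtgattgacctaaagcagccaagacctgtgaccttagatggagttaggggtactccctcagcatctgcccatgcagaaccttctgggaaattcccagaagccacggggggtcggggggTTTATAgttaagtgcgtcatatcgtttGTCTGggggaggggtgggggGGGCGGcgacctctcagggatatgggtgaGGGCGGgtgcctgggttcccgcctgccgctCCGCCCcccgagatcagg
P4HA2, chr5:132227092-132227341, minus strand: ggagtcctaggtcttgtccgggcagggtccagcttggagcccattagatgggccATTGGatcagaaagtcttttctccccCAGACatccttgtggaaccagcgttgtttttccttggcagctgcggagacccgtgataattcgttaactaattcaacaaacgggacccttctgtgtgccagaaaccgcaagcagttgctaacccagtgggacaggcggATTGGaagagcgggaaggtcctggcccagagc
CRTAP, chr3:33113764-33114013, plus strand: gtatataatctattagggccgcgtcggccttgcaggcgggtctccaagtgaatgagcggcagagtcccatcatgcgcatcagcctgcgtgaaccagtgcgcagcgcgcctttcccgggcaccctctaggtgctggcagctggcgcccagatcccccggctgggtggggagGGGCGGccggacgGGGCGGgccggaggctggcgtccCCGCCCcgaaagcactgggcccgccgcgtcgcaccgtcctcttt
The COL4A1 and COL4A2 stretch holds 1 GGGCGG and 1 CCAAT match, and neither CAGAC nor TATAAA. The COL7A1 window holds 3 GGGCGG matches and 1 each of CAGAC and TATAAA, whereas the CRTAP window holds 3 GGGCGG matches only. Windows of 25 of the 34 genes were found in RefSeq. CAGAC was in a window of 12 of these 25 genes and of 42.8% of all 27305 genes, and GGGCGG in 18 of 25 and 46.2%. CCAAT was in 8 of 25 (37.0% of all genes) and TATAAA in 5 of 25 (13.0%). The longer SMAD element GTCTAGAC was in none of the 25 windows and in 0.231% of all genes. A match is a string of letters in the window and shows no binding.

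COL7A1, whose product forms the anchoring fibrils under the basement membrane, was 8.47, 7.66 and 6.58 FPKM in the controls and 45.4, 46.7 and 41.4 with TGFbeta1. All TGFbeta1 libraries were above all controls, with a log2 change of 2.41 ± 0.11 (SE; limma adjusted p = 0.000152). COL8A1, a chain of a short network-forming collagen, was 5.88, 5.58 and 7.56 FPKM in the controls and 16.3, 15.1 and 17.8 with TGFbeta1. Its log2 change was 1.25 ± 0.13 (SE; adjusted p = 0.00232). The beaded-filament collagen VI genes were low in this set. COL6A1 was 2.21, 2.70 and 2.56 FPKM against 5.12, 5.99 and 5.54, without overlap (log2 change 0.91, adjusted p = 0.00283). COL6A2 was 1.15, 1.09 and 1.42 FPKM against 2.10, 2.13 and 1.92 (log2 change 0.46, adjusted p = 0.027), a call that was lost when any library other than control 3 was left out, at adjusted p between 0.0591 and 0.0895. COL6A3, the large chain that type VI trimers also need, was 0.0891, 0.132 and 0.186 FPKM in controls and 0.430, 0.855 and 0.602 with TGFbeta1. Its level was 0.0402 to 0.0724 of that of COL6A1 in controls and 0.0840 to 0.143 with TGFbeta1 (exact permutation p = 0.1, the smallest possible). In TGFbeta1 library 2 all of it came from ENST00000409809, which was 0 in every other library. ENST00000295550, the other listed COL6A3 transcript, was 0 in that library, so its groups overlapped.

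COL12A1, which decorates the surface of fibrils, was the 1 tested chain that did not pass. Its level was 0.998, 1.41 and 1.09 FPKM in the controls and 1.71, 1.40 and 1.09 with TGFbeta1, and the groups overlapped (log2 change 0.15, limma adjusted p = 0.502). COL13A1 (a transmembrane collagen), COL16A1 (a fibril-associated collagen) and COL18A1 (a basement membrane collagen whose end fragment is endostatin) had means under 1 FPKM. COL18A1 was 0.482, 0.373 and 0.291 FPKM in controls and 1.67, 1.72 and 1.42 with TGFbeta1. Their groups did not overlap, and the fit without a filter gave log2 changes of 0.58, 0.48 and 0.91 (adjusted p = 0.00672, 0.0302 and 0.00179). These are gene sums, and single transcripts differed from them. ENST00000398978, the COL13A1 transcript with the highest control mean, was 0.202, 0.302 and 0.189 FPKM in controls and 0.0823, 0 and 0 with TGFbeta1. ENST00000400337 of COL18A1 was 1.67, 1.40 and 0.196 FPKM with TGFbeta1 and overlapped its controls.

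Among the enzymes, the prolyl 4-hydroxylase alpha subunits behaved differently from one another. These subunits carry the active site of the enzyme whose product, hydroxyproline, stabilises the triple helix. P4HA1 was 34.04, 24.6 and 23.0 FPKM in the controls and 29.5, 28.2 and 27.5 with TGFbeta1, with overlap (log2 change 0.08, limma adjusted p = 0.752). P4HA2 was 27.8, 27.0 and 28.1 FPKM against 60.9, 58.3 and 57.7, a log2 change of 1.07 ± 0.06 (SE; adjusted p = 0.00029). P4HA3 was 0.1002, 0.124 and 0.122 FPKM against 2.83, 3.09 and 2.12, a ratio of means of 23.2 and a log2 change of 1.71 (adjusted p = 0.000833). Its controls lay far under the filter, so it was tested only through its TGFbeta1 libraries and had to differ. In the controls P4HA1 and P4HA2 were at similar levels, and with TGFbeta1 P4HA2 was above P4HA1 in every library.

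P4HA2 has a pair of alternative exons, of which 6 of its listed transcripts carry exactly 1. They are shown because both forms increased, in the sense of the coding strand (minus strand) of GENCODE 29 on GRCh38. Exon a has 60 bases (20 codons, chr5:132198321-132198380) and exon b has 66 bases (22 codons, chr5:132198206-132198271).
P4HA2 exon a: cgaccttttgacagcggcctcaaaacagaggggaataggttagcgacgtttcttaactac
P4HA2 exon b: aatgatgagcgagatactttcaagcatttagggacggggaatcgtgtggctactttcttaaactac
In a global alignment 35 of 67 columns were identical (52.2%). Transcripts with exon a summed to 12.3, 14.7 and 15.6 FPKM in the controls and 28.5, 23.1 and 29.4 with TGFbeta1. Those with exon b summed to 13.6, 10.7 and 11.2 FPKM and to 28.9, 32.5 and 24.7. The share of exon b in the 2 forms was 41.8 to 52.6% in controls and 45.7 to 58.5% with TGFbeta1, so the groups overlapped. The other transcripts, 4 in the first set, carried neither or both exons and made up 4.63 to 6.74% of the gene's FPKM. In the second set 2 such transcripts made up 27.1 to 34.8%. These forms and those of PLOD2 and COL1A1 were chosen after their values were seen and were not tested as forms.

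The lysyl hydroxylases PLOD1, PLOD2 and PLOD3 form the hydroxylysines that carry sugars and mature cross-links. PLOD1 was 34.2, 35.2 and 39.8 FPKM in the controls and 50.8, 53.1 and 54.9 with TGFbeta1 (log2 change 0.53, limma adjusted p = 0.00861). PLOD2 was 23.7, 38.6 and 37.0 FPKM against 66.7, 69.3 and 61.3, with control 1 well below the other two (log2 change 0.998 ± 0.19, SE; adjusted p = 0.0197). The groups of PLOD2 did not overlap, but its call was lost when any TGFbeta1 library was left out (adjusted p = 0.0521 to 0.0685). PLOD3, which also transfers sugars, was 43.8, 41.9 and 45.9 FPKM against 51.1, 51.3 and 55.1. Its log2 change was 0.25 at an adjusted p of 0.0495, and leaving out any library but control 3 lost the call (adjusted p = 0.105 to 0.127). COLGALT1, the galactosyltransferase that starts those sugars, was 23.5, 28.7 and 31.2 FPKM against 34.8, 28.6 and 31.0, with overlap (adjusted p = 0.39).

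PLOD2 can include an extra exon of 63 bases (21 codons, GRCh38 chr3:146077862-146077924, minus strand). The form with this exon is known for hydroxylating the telopeptides, the ends of the collagen molecule where cross-links form.
PLOD2 extra exon: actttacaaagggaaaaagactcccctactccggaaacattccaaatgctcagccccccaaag
Transcripts of the first set with the exon summed to 12.7, 19.0 and 19.0 FPKM in the controls and 41.5, 38.2 and 42.1 with TGFbeta1. The transcript without it was 11.1, 19.4 and 17.4 FPKM against 24.2, 30.6 and 19.2, with overlap. The exon was thus in 49.5 to 53.4% of the FPKM of both forms in controls and in 55.6 to 68.6% with TGFbeta1. The form with the exon comprised 3 transcripts, of which ENST00000494950 went from a mean of 4.12 to 26.6 FPKM (limma adjusted p over transcripts = 0.0769) while ENST00000282903 was 12.8 and 13.9. The second set lists 1 transcript of each form, so its shares were not set beside these.

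**Figure D2:**
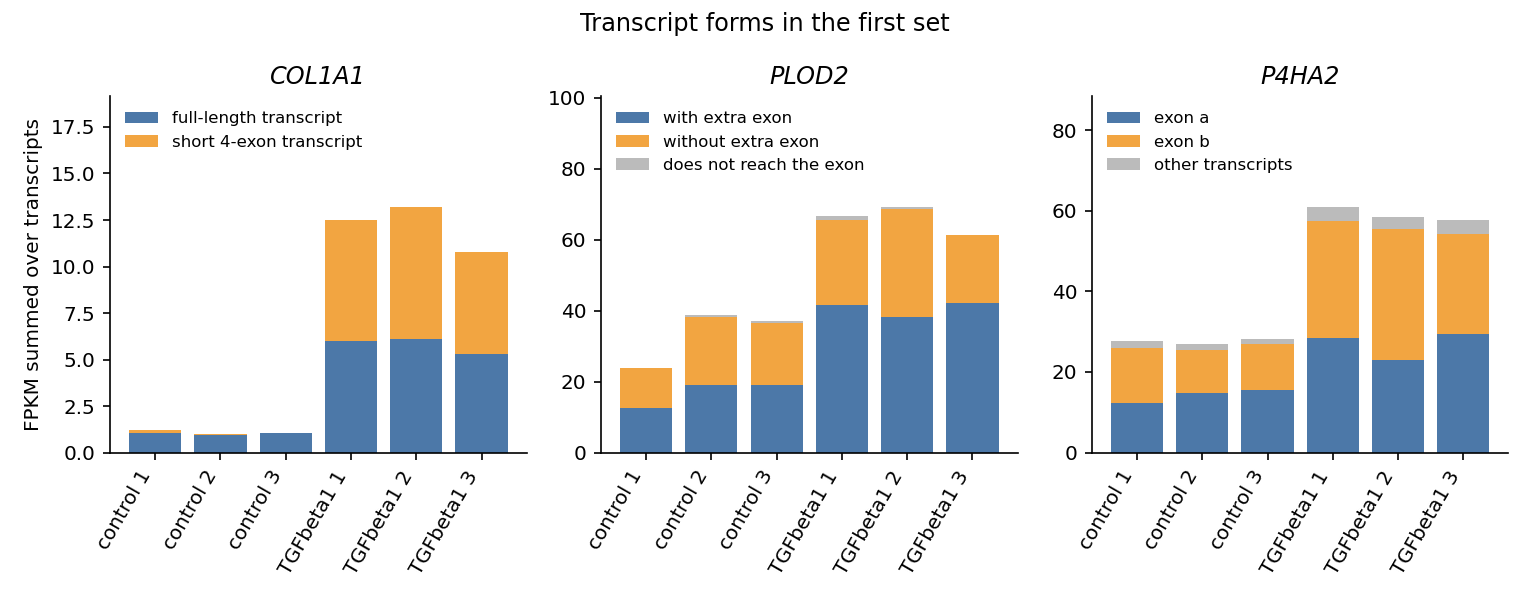
FPKM summed over transcripts of COL1A1, PLOD2 and P4HA2 in the 6 libraries of the first set, stacked by form. The short COL1A1 transcript makes up 50.7 to 53.7% of each TGFbeta1 bar, the form of PLOD2 with its extra exon is 41.5, 38.2 and 42.1 FPKM, and both exon forms of P4HA2 are larger with TGFbeta1.

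CRTAP was the 1 tested gene that fell. It encodes a helper protein that, with P3H1 and PPIB, forms the complex that hydroxylates a proline of fibrillar chains and assists folding (hg19 chr3:33155471-33189265, plus strand). Its level was 28.1, 28.6 and 27.2 FPKM in the controls and 11.2, 11.3 and 11.2 with TGFbeta1. All TGFbeta1 libraries were under all controls, with a ratio of means of 0.402 and a log2 change of -1.24 ± 0.06 (SE; limma adjusted p = 0.000199). Its partners, named after their values were seen, rose: P3H1 was 10.0, 11.1 and 11.6 FPKM against 14.2, 15.2 and 14.4 (adjusted p = 0.0232). PPIB was 152, 154 and 166 FPKM against 194, 191 and 198 (adjusted p = 0.018). SERPINH1, the collagen-specific chaperone of the endoplasmic reticulum, had the highest control mean of the 31 genes listed in this set, at 46.2, 47.5 and 45.4 FPKM. It was 67.3, 64.8 and 63.3 FPKM with TGFbeta1 (log2 change 0.48 ± 0.06, SE; adjusted p = 0.00389).

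The extracellular enzymes were more variable. LOXL2, an amine oxidase that cross-links type IV collagen, was 4.55, 2.97 and 5.34 FPKM in the controls and 13.1, 16.2 and 16.0 with TGFbeta1. Its log2 change was 1.63 ± 0.20 (SE; limma adjusted p = 0.00406). LOX, the founding lysyl oxidase, was 3.31, 3.67 and 2.58 FPKM against 2.09, 8.23 and 6.13, so TGFbeta1 library 1 lay under every control and the other two above (adjusted p = 0.448). Without that library the log2 change was 0.96 and the adjusted p was 0.0368. LOXL1 was 1.95, 1.55 and 2.14 FPKM against 4.22, 3.94 and 2.50, without overlap, and did not pass (log2 change 0.65, adjusted p = 0.0599). It passed without TGFbeta1 library 3 (adjusted p = 0.0217) and with libraries scaled to an equal sum (0.0461). LOXL4 was at most 0.0912 FPKM in any library and was not tested. It was 0.0445, 0.0827 and 0.0912 FPKM in controls and 0.0321, 0.0374 and 0.0286 with TGFbeta1, lower without overlap. The limma fit without a filter gave an adjusted p of 0.354. BMP1, the proteinase that removes the carboxyl propeptide, was 1.41, 3.95 and 3.72 FPKM against 5.78, 7.61 and 1.97, with overlap (adjusted p = 0.478). None of its transcripts was called. ENST00000306385 was 1.40, 2.75 and 3.03 FPKM in controls and 1.16, 1.34 and 1.17 with TGFbeta1 (limma adjusted p = 0.256). ENST00000354870 was under 1 FPKM in the controls and 3.86, 5.48 and 0.0062 with TGFbeta1, with overlap (adjusted p = 0.365). On the transcripts listed in both sets the log2 change of the gene was -0.27.

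**Figure D3:**
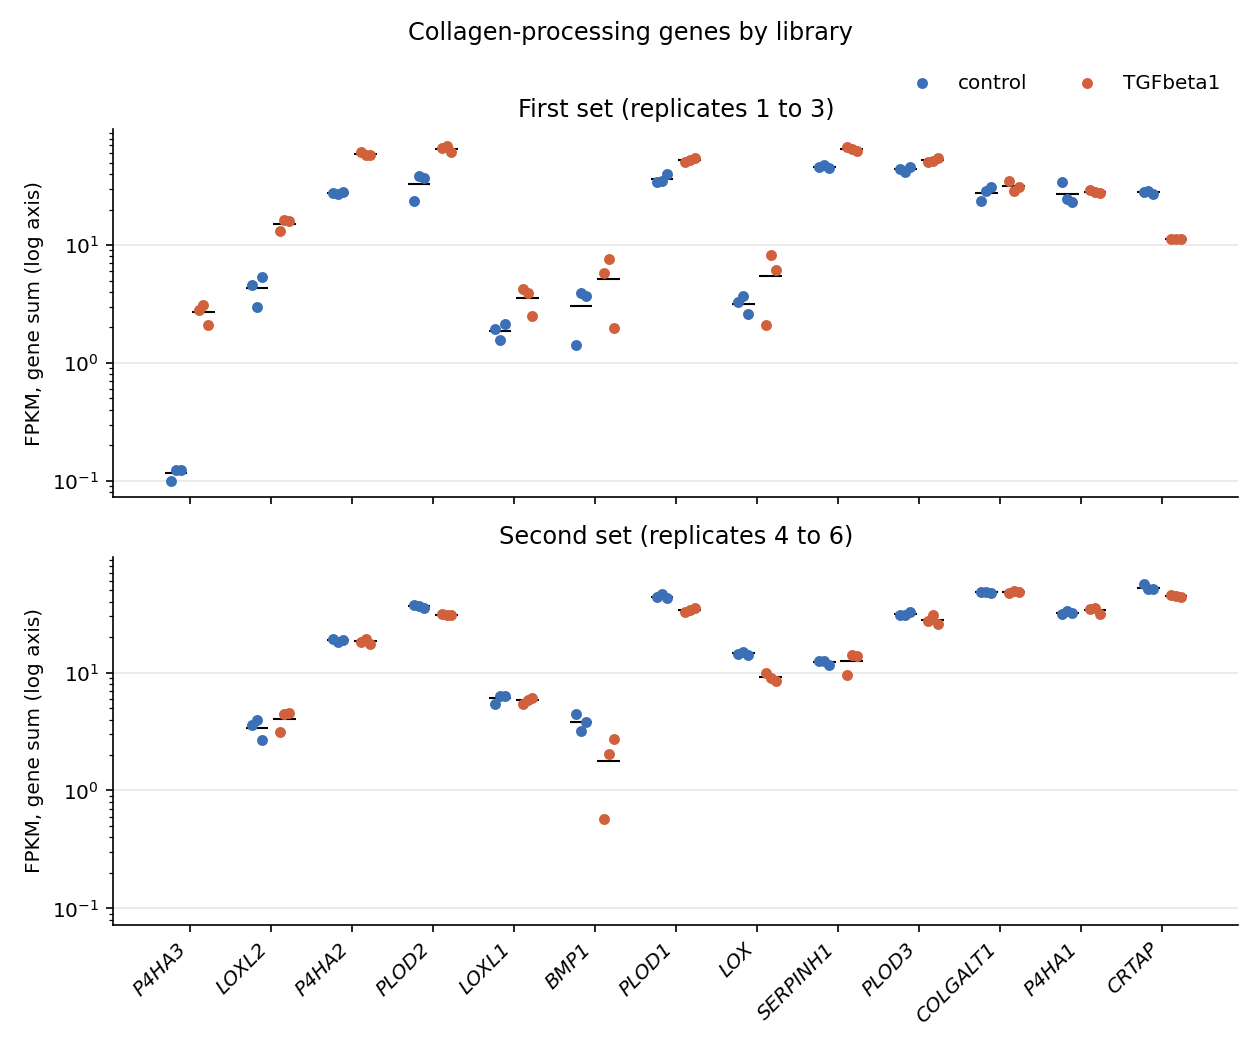
FPKM of 13 processing genes (gene sums, log axis) in each library, controls in blue and TGFbeta1 libraries in orange, with bars for group means of 3. Of the plotted genes, CRTAP is the 1 in the first set whose TGFbeta1 libraries all lie under the controls, and LOX, BMP1, COLGALT1 and P4HA1 overlap. P4HA3 was plotted for the first set only.

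Per transcript, the first set listed 102 transcripts of these genes, of which 42 were tested. Of these 15 were called higher and 1 lower, over 13 genes, against 2.71% and 2.83% of all transcripts. The transcript that fell was ENST00000320954 of CRTAP, from a mean of 27.7 to 10.8 FPKM (limma adjusted p = 0.00342). The second set listed 60 of these transcripts and 40 were tested, with none called by limma in either direction (0.118% of all transcripts were called higher and 0.103% lower). At an unadjusted p under 0.05, 10 of the 40 were lower and 0 higher, against 3.17% and 3.67% of all transcripts. The main COL7A1 transcript ENST00000328333 rose in the first set from 7.45 to 44.3 FPKM (adjusted p = 0.000879).

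None of the second set's 22 tested genes (10 chains and 12 enzymes) was called in either direction by limma with Benjamini-Hochberg adjustment. Among all 10579 genes tested, 0.170% were called higher and 0.151% lower. The summed chains were 76.0 to 82.8 FPKM in controls and 59.0 to 69.1 FPKM in the libraries labelled TGFbeta1, and the summed enzymes were 298.9 to 307.2 and 265.3 to 279.4 FPKM. At an unadjusted p under 0.05 there were 11 genes lower (6 chains and 5 enzymes) and 1 higher, COL8A1, where 5.39% of all genes were lower and 5.79% higher. The libraries of the groups did not overlap for 12 genes that were lower and 1 that was higher, against 9.62% and 9.71% of all genes. The same count in the first set was 18 higher and 1 lower (18.2% and 25.1% of all genes). The median log2 change in the second set was -0.44 for chains, -0.10 for enzymes and 0.00 for all genes. In the authors' deposited table of this set, 0 of 60 transcripts of these genes had a q-value under 0.05, and the lowest was 0.135 for COL4A2.

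The basement membrane pair was among the genes with the lowest adjusted p in the second set. COL4A2 was 9.25, 9.92 and 9.00 FPKM in controls and 5.97, 6.31 and 6.37 in the libraries labelled TGFbeta1 (log2 change -0.53 ± 0.07, SE; limma adjusted p = 0.0786). COL4A1 was 5.86, 6.58 and 5.96 FPKM against 3.43, 3.76 and 4.23 (log2 change -0.57, adjusted p = 0.124). The groups did not overlap for either gene, and the ratio of COL4A2 to COL4A1 was 1.51 to 1.58 in controls and 1.51 to 1.74 in the other group. Collagen VI was at higher levels relative to the other chains than in the first set. Much of the COL6A1 level came from ENST00000612273, at 5.76, 7.71 and 9.47 FPKM in controls of the second set. That transcript was 0 in all controls of the first. The other COL6A1 transcript, ENST00000361866, averaged 3.28 FPKM in controls of the second set and 2.49 in those of the first. ENST00000300527 of COL6A2 averaged 9.84 and 0.940 FPKM in the same order. In the controls of the second set, COL6A2 (11.3 ± 0.812 FPKM, SD, n = 3), COL6A1 (10.9 ± 1.38) and COL7A1 (9.81 ± 1.63) led the chains described here. Their means lay within their spread of each other. COL6A1 was 9.48, 11.1 and 12.2 FPKM in controls and 5.97, 6.14 and 6.87 in the other group (log2 change -0.70, adjusted p = 0.116). COL6A2 was 11.2, 12.1 and 10.5 FPKM against 6.03, 8.08 and 7.50 (log2 change -0.59, adjusted p = 0.16). COL5A1 was 3.20, 3.37 and 3.06 FPKM against 1.49, 1.71 and 2.28 (log2 change -0.58, adjusted p = 0.192). These groups too did not overlap, although none passed the adjusted test.

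COL8A1 and COL1A1 lay in the other direction. COL8A1 was 9.39, 9.11 and 7.36 FPKM in controls and 12.5, 10.4 and 13.3 in the libraries labelled TGFbeta1 (log2 change 0.44, limma adjusted p = 0.303). COL1A1 was 0.456, 0.415 and 0.445 FPKM against 0.755, 0.615 and 0.768, under the 1 FPKM filter and without overlap (0.25 in the fit without a filter, adjusted p = 0.41). COL7A1 was 8.47, 9.33 and 11.6 FPKM against 7.61, 7.12 and 7.37 (adjusted p = 0.364). COL4A5 (adjusted p = 0.622), COL4A6 (0.492) and COL12A1 (0.926) gave log2 changes of -0.26, -0.16 and 0.05. COL18A1 was 1.09, 1.26 and 1.62 FPKM against 0, 0.620 and 1.35, where the first is a library that lists the gene at 0. COL16A1 was 0.499 to 0.579 FPKM against 0.408 to 0.657, with overlap.

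Of the enzymes, LOX had the lowest adjusted p of the second set. It was 14.4, 15.1 and 14.1 FPKM in controls and 9.91, 9.08 and 8.48 in the libraries labelled TGFbeta1 (log2 change -0.62 ± 0.08, SE; limma adjusted p = 0.0577). With a minimum of 5 FPKM, which leaves fewer genes to adjust over, this became 0.0481. PLOD1 was 43.5, 46.5 and 42.7 FPKM against 33.0, 33.8 and 35.6 (log2 change -0.36, adjusted p = 0.122). PLOD2 was 37.3, 37.0 and 35.0 FPKM against 31.5, 30.6 and 30.5 (log2 change -0.23, adjusted p = 0.207), and CRTAP was 56.0, 50.8 and 51.2 against 45.2, 44.7 and 43.7 (log2 change -0.24, adjusted p = 0.242). These 4 and BMP1 were the enzymes whose groups did not overlap. Part of the CRTAP change came from ENST00000449224, at 8.46, 0.985 and 4.99 FPKM in controls and 0 in the other group. The main CRTAP transcript, ENST00000320954, gave a log2 change of -0.10 (limma adjusted p over transcripts = 0.798). BMP1 spread widely, from 3.19 to 4.48 FPKM in controls and from 0.577 to 2.73 in the other group. LOXL2, P4HA1, P4HA2, SERPINH1, COLGALT1, LOXL1 and PLOD3 overlapped, with log2 changes between -0.16 and 0.19.

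Few markers of other cells were listed, and none was called by limma in the second set. The listed fibroblast and mural markers there (2 of 15) summed to 77.6 to 81.2 FPKM in controls and 61.6 to 67.0 in the libraries labelled TGFbeta1, so the groups did not overlap. FBLN1 made up nearly all of it (log2 change -0.28, limma adjusted p = 0.143). PDGFRA, under the filter and not tested, was 1.34, 1.53 and 1.05 FPKM against 0.704, 0.779 and 0.594. The listed blood and endothelial markers (4 of 13) lay the other way, at 5.97 to 7.998 FPKM in controls against 9.47 to 11.1, mostly CD14 (5.35 and 8.69 FPKM, adjusted p = 0.181). The first set listed 4 of 15 fibroblast and mural markers, with sums of 58.6 to 73.7 FPKM in controls and 65.1 to 79.5 with TGFbeta1 that overlapped. Its blood and endothelial markers (6 of 13) summed to 4.56 to 5.69 and 4.27 to 4.96 FPKM, and the pair that was tested went opposite ways. CD14, which passed the filter through its controls, fell from 2.84 to 0.581 FPKM and CSF1R rose from 1.34 to 3.70 (limma adjusted p = 0.00122 and 0.0023). The part of such cells in the results was not tested. In bulk RNA, fewer cells of a type and less RNA per cell cannot be told apart.

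The change differed between the sets for most of these genes. The difference was tested as the log2 change of the second set minus that of the first, on 23 genes with a mean of at least 1 FPKM over the 12 libraries. Of these, 15 were called lower (10 of 11 chains and 5 of 12 enzymes) and 1 higher, against 6.04% and 7.54% of 10571 genes. With an equal sum per library the shares of all genes were 7.30% and 4.94%, and the counts here were 17 and 1. These counts are a description, since COL1A1 passed the filter through its TGFbeta1 libraries of the first set (mean 12.2 FPKM). Its mean was 1.10 FPKM in the controls of that set. In the second set it was 0.439 in controls and 0.713 in the other group. COL5A1 differed most, by -4.09 ± 0.17 (SE; limma adjusted p = 2.61e-07), its changes being 3.50 and -0.58 in turn. COL4A1 differed by -3.61 (adjusted p = 5.43e-07), COL4A2 by -3.10 (5.18e-08), COL7A1 by -2.77 (3.51e-06) and COL1A1 by -2.40 (2.02e-06). For COL1A1 the first set sums 2 transcripts, the short one included, while the second lists only the full-length one. Under the alternatives that kept all libraries, the COL1A1 difference lay between -2.766 and -1.504. COL12A1 (-0.10, adjusted p = 0.811) was the 1 tested chain without a call. LOXL2, PLOD1, PLOD2, PLOD3 and P4HA2 were the 5 enzymes called lower. CRTAP differed the other way, by 1.01 ± 0.09 (SE; adjusted p = 4.14e-05), since its change was -1.24 within the first set and -0.24 within the second. The calls for COL4A5 and PLOD3 were lost when most single libraries were left out, at adjusted p up to 0.0718 and 0.0773.

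**Figure D4:**
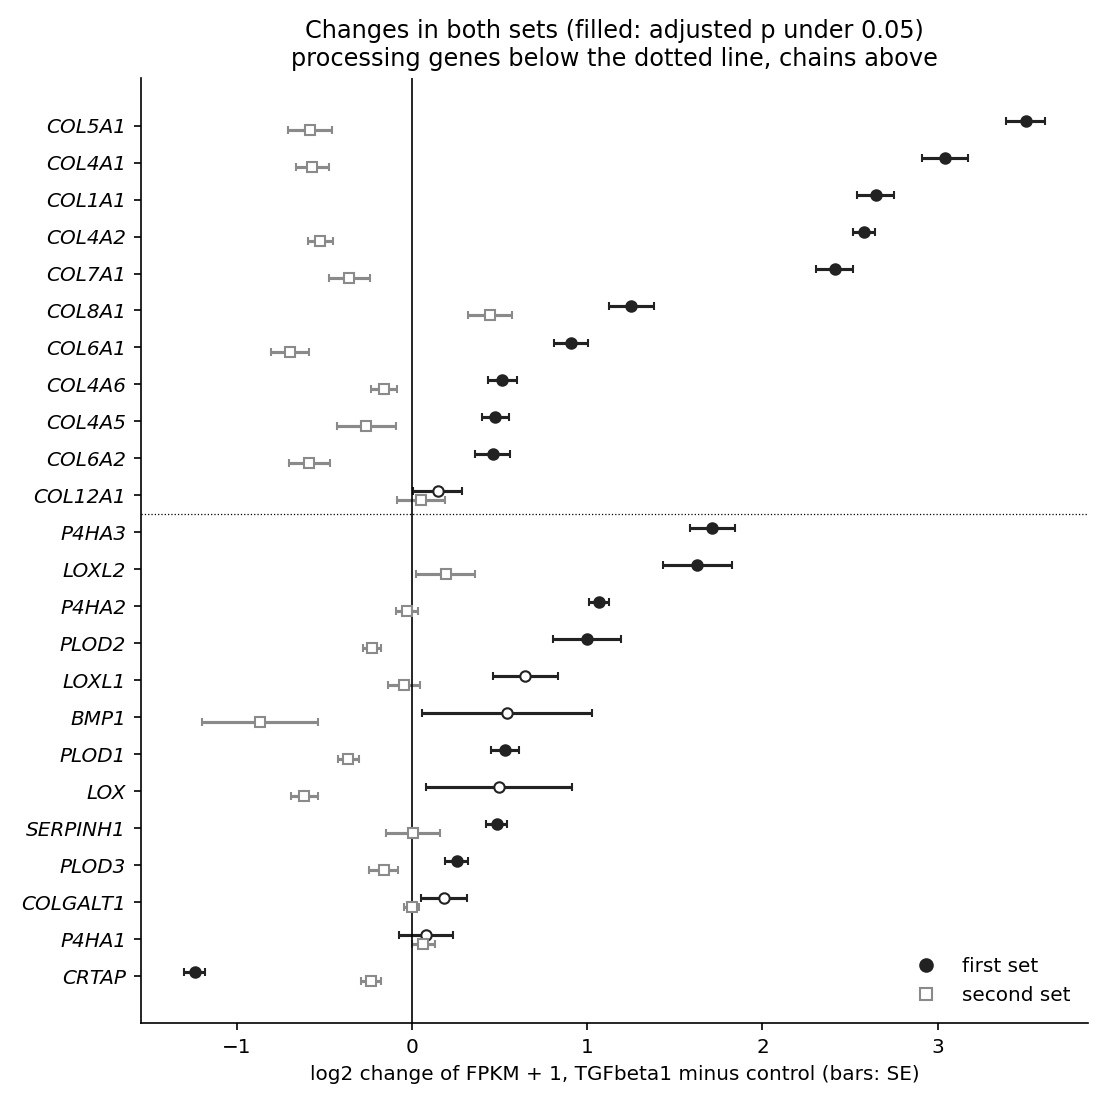
Log2 change of FPKM + 1 (TGFbeta1 minus control) with its SE for 24 genes in the first set (circles) and the second set (squares), chains above the dotted line and processing genes below it. Filled symbols passed an adjusted p of 0.05: 18 circles and no square. COL1A1 and P4HA3 have no square because they were not tested in the second set.

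Other genes of the collagen pathway were taken from lists. Their counts of calls stand beside 9.00% higher and 11.9% lower over all genes in the first set, and 0.170% and 0.151% in the second. Their counts at an unadjusted p under 0.05 in the second set stand beside 5.79% higher and 5.39% lower. Of 24 further chains only COL17A1, a transmembrane collagen of hemidesmosomes, was tested, and it rose in the first set from 147.8 ± 9.16 to 295.9 ± 5.06 FPKM (SD, n = 3; limma adjusted p = 0.000478). It was 83.1 and 91.6 FPKM in the second set (adjusted p = 0.496). Of 17 other tested processing and secretion genes, 7 were called higher and none lower in the first set (all genes: 9.00% and 11.9%). Among them were SEC24D, a coat protein of the vesicles that export procollagen (4.40 to 10.9 FPKM), P3H3 (2.66 to 6.45) and the propeptide-cleaving proteinase TLL1 (0.957 to 3.05), with adjusted p of 0.000923, 0.0045 and 0.00468. The controls of TLL1 averaged under 1 FPKM, so its TGFbeta1 libraries carried it past the filter, and without it 6 of 16 rose. None of 17 was called by limma in the second set (1 higher and 1 lower at an unadjusted p under 0.05), where the lowest adjusted p were those of PCOLCE2 (0.114), SEC24D (0.255) and PPIB (0.483).

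Of 5 tested proteins that bind collagen in the matrix, 4 rose in the first set (9.00% of all genes). Fibronectin (FN1), on which collagen fibrils assemble, went from 26.7 to 214.1 FPKM (limma adjusted p = 6.74e-05), the basement membrane proteoglycan HSPG2 from 18.1 to 25.4 (0.00561) and decorin (DCN) from 0.594 to 2.78 (0.0142). DCN passed the filter through its TGFbeta1 libraries, and without it 3 of 4 rose. In the second set 1 of 6 was called, and it was lower (0.151% of all genes): DCN, at 28.6 ± 1.97 FPKM in controls and 12.4 ± 1.82 in the libraries labelled TGFbeta1 (SD, n = 3; adjusted p = 0.038). That call was lost when control 4 was left out, where no gene of the second set was called in either direction. BGN (0.119) and FBLN1 (0.143) followed there without a call. Of 11 collagen receptors tested, 7 were called higher and none lower in the first set (all genes: 9.00% and 11.9%), with the integrin subunit ITGB1 going from 107.5 to 208.0 FPKM, CD44 from 110.1 to 181.0 and the collagen uptake receptor MRC2 from 1.06 to 6.95. None of 11 was called by limma in the second set (0 higher and 2 lower at an unadjusted p under 0.05), where ITGA10 had the lowest adjusted p (0.114), then MRC2 (0.153) and CD44 (0.483).

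Of 8 collagen-degrading enzymes tested in the first set, 6 were called higher and none lower (all genes: 9.00% and 11.9%), and the other two were not called, with negative log2 changes. The gelatinase MMP2 went from 2.18 to 20.5 FPKM and the membrane protease FAP from 6.73 to 41.0. For MMP9 the controls list 0.0254, 0 and 0 FPKM and the TGFbeta1 libraries 5.33, 5.83 and 5.37, and all 3 genes had limma adjusted p of at most 6.74e-05. MMP9 was tested only because its TGFbeta1 libraries lifted its mean over the filter, and without it 5 of 7 rose. In the second set limma called none of 8 (0 higher and 2 lower at an unadjusted p under 0.05), with FAP (0.168), MMP2 (0.319) and CTSK (0.492) lowest in adjusted p. Of 22 transcription regulators of collagen genes tested, 7 rose and 3 fell in the first set (all genes: 9.00% and 11.9%), so the share that fell was near that of all genes. SKIL and SMAD7, which also served as the label check, gave the smallest p among the rises, and SRF fell from 14.9 to 9.40 FPKM (adjusted p = 0.00379). None of 22 was called by limma in the second set (1 higher and 4 lower at an unadjusted p under 0.05), where TWIST1 (0.144), EGR1 (0.359) and SOX9 (0.368) had the lowest adjusted p. TWIST1 averaged 0.407 FPKM in controls of the first set and 24.2 in those of the second, which was not tested.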

How the data were processed

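RNA from 12 MCF-12A libraries was prepared with Trizol, and sequencing libraries followed Illumina's usual procedure, per the labels' protocols. For read processing the submitters' processing notes list HISAT2 2.0.4 and StringTie 1.2.3 next to cutadapt and FastQC, with hg19 as the build. For settings, strand and annotation release the labels have no entry. FPKM per transcript is what the authors deposited, in 2 tables. No header of the first table states a unit, so FPKM is inferred there from the values. In the second table the deposited group means are log2 values, equal to the means of log2(FPKM + 1) over its libraries (recomputed log2 fold changes differ by less than 1e-07). That table also holds the authors' linear fold ratio, p-values and q-values.

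Transcripts were summed per gene symbol. Transcript identifiers were matched without their trailing suffix (27303 shared, all at the same locus, against 23335 with it). Genes with a mean of at least 1 FPKM were tested on log2(FPKM + 1) with limma 3.58.1 (R 4.3.3), using a trended prior variance. P-values were two-sided and adjusted by Benjamini-Hochberg over all genes tested, and genes were called at an adjusted p under 0.05. This scale understates changes of low genes. Tests were made within each set, on transcripts, and on the difference between sets. Chain ratios were compared by an exact permutation test. The procedure was tested on simulated data. The members and lists were chosen with earlier results of these data known. All listed members are reported, and of each other list the 3 genes with the smallest p in each set. Exons are from GENCODE 29 and promoters from RefSeq. Python 3.11.15, pandas 2.3.3, scipy 1.17.1, biopython 1.88 and matplotlib 3.10.9 were used. Replicate numbers were not used to pair the libraries in the main fits. Alternatives were a pseudocount of 0.1, no filter, a minimum of 5 FPKM, other scalings, other variance models, a replicate block, shared transcripts and leaving out each library.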

Additional observations from a re-analysis of the deposited data

Results flagged for a closer look

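For 16 genes the TGFbeta1 change differed between the sets by a test of the difference itself (limma on the 12 libraries, log2 change of the second set minus that of the first, adjusted p under 0.05). Among the chains the difference was -4.087 for COL5A1, -3.612 for COL4A1, -3.104 for COL4A2, -2.771 for COL7A1, -2.396 for COL1A1 and -1.606 for COL6A1. It was -1.049 for COL6A2, -0.807 for COL8A1, -0.737 for COL4A5 and -0.674 for COL4A6. Among the enzymes it was -1.435 for LOXL2, -1.23 for PLOD2, -1.097 for P4HA2, -0.893 for PLOD1 and -0.417 for PLOD3, while CRTAP differed by 1.006. The calls of COL4A5 and PLOD3 did not hold under every alternative. The COL1A1 difference sets 2 transcripts of the first set beside 1 of the second. It lay between -2.766 and -1.504 under the alternatives that kept all libraries. COL1A1 also passed the filter of this test through its TGFbeta1 libraries of the first set. Which property of the sets the differences go with was not tested.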

How the results depend on the processing

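In the first set 13 of the 18 called genes kept their call under every alternative that gave a value. In the difference between sets 14 of 16 did. The 13 include P4HA3 and the 14 include COL1A1. Each was tested there only through TGFbeta1 libraries of the first set, so their kept calls add no support. The first set gave 13 to 22 genes higher, and 14 to 19 when a library was left out, with 1 lower throughout. The median log2 change of the chains there was 1.365 with a pseudocount of 0.1, 0.907 without a filter, 2.496 at a minimum of 5 FPKM (8 chains), 1.154 with an equal sum, 1.342 on shared transcripts, and 1.145 to 1.305 leaving out a library. In the second set it was -0.534 to -0.38 leaving out a library, and 1 gene (LOX) was called lower at a minimum of 5 FPKM. Of the transcripts of the first set, 9 were called higher at a minimum of 5 FPKM and 7 to 13 leaving out a library.

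The replicate block, which the data do not support as a pairing (correlations of same-numbered deviations of 0.007 to 0.046), lowered the calls over all genes of the first set from 941 and 1245 to 552 and 659, and those of the second from 18 and 16 to 0 and 0. With the block 4 transcripts of these genes were called higher and 0 lower in the first set, and the genes COL4A6, COL6A2, PLOD2 and PLOD3 lost their calls (adjusted p = 0.0505, 0.094, 0.0548 and 0.0882).

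Signs that reversed belonged to genes without a call. On shared transcripts BMP1 was -0.272 in the first set, and with an equal sum SERPINH1 was -0.02 in the second. Leaving out a library, P4HA1 lay between -0.027 and 0.248 in the first set. In the second, COL12A1 lay between -0.037 and 0.162, SERPINH1 between -0.091 and 0.174 and COLGALT1 between -0.015 and 0.009. For the difference, COL12A1 lay between -0.191 and 0.016 and P4HA1 between -0.184 and 0.09. The causes were not tested. Depth is unknown, so counting error could not be given.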
